A study of Mus musculus with 6 samples.

Results

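The expression of 10 genes of the cellular antioxidant defence was examined in the hearts of mice fed a chow diet or a steatohepatitis-inducing diet with or without pemafibrate. The genes were a fixed list matched by symbol, and all 10 were found among the 24346 genes of the expression tables. They comprised 6 targets of the transcription factor NRF2 (*Hmox1*, *Nqo1*, *Gclc*, *Gclm*, *Txnrd1* and *Srxn1*) and 4 antioxidant enzymes (*Cat*, *Sod1*, *Sod2* and *Gpx1*). All 10 passed the filter on low expression, which kept 12923 genes with a mean of at least 0.5 FPKM (fragments mapped to a gene, scaled to the length of its transcripts and to the size of the library).

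C57BL/6J male mice received a normal chow diet (C group), a diet rich in fat, cholesterol and sucrose with added bile acid (NASH diet, N group), or that NASH diet with pemafibrate at 0.1 mg/kg (NP group). Pemafibrate is a selective modulator of PPARα, a nuclear receptor that governs fatty acid oxidation. Each group held 2 heart RNA-sequencing libraries, and the labels do not say whether these came from separate mice, so that *P* values measure the spread between these libraries, which may be technical. The labels give 3 weeks of feeding, whereas the study's methods describe a longer period. All mice carried the same wild-type background, and their age is not given in the sources used here. Chow-fed mice given pemafibrate were not analysed here, so that the effect of the drug could be seen only on top of the NASH diet.

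NRF2, encoded by *Nfe2l2*, is held in the cytoplasm by KEAP1, which delivers it to the proteasome. Electrophiles and oxidants modify cysteines of KEAP1, after which NRF2 accumulates, pairs with a small MAF protein and binds the antioxidant response element in the promoters and enhancers of its targets, while BACH1 represses some of the same sites. The targets supply glutathione, reduced thioredoxin and NADPH and detoxify quinones and haem. The 4 enzymes act directly on oxidants, as superoxide dismutases convert superoxide to hydrogen peroxide, and catalase and glutathione peroxidase remove the peroxide. Cardiomyocytes are rich in mitochondria, and their mitochondrial superoxide is handled by SOD2.

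The promoter sequences are shown because NRF2 binding sites are what relates the first 6 genes to each other. RefSeq promoter windows (GRCm38.p6, 250 bases before to 50 bases after the annotated start) were at hand for 8 of the 10 genes, *Hmox1* and *Gclc* being without an entry. These 8 genes had 10 windows, as *Txnrd1* had several starts. The core of the antioxidant response element was searched as TGACNNNGC on both strands. It occurred in 4 of the 10 windows and in 12.4% of all 32851 windows of the same length. In each of the 4 it lay in the reverse orientation, as GCNNNGTCA, which is shown in capitals with its flanks (5′ to 3′, plus strand).
*Srxn1* chr2:152105542-152105570, motif beginning 28 bases after the start: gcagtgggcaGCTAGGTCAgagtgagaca
*Gclm* chr3:122245403-122245451, motif beginning 134 bases before the start: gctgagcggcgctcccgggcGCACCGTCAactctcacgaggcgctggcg
*Txnrd1* chr10:82859094-82859142, motif beginning 92 bases before the start of its second window: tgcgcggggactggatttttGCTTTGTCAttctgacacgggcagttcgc
*Sod1* chr16:90220686-90220734, motif beginning 56 bases before the start: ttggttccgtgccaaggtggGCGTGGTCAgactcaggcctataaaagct
A looser form of the core, TGANNNNGC, which every match above also meets, was present in 5 of the windows and in 41.3% of all windows. The 5 windows belonged to the same 4 genes. A match of these letters is a description of the sequence, and distal elements lie outside these windows.

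The 6 libraries differed in depth. Low values lay mostly near whole-read steps, from which the depth was estimated at 26100000 and 21400000 reads in the C group and at 8190000 to 8800000 reads in the N and NP groups, so that depth and diet cannot be told apart. The lowest member count estimated from this was 114 reads, for *Hmox1* in NP replicate 2, with a counting error of 9.36%. Ventricular cardiomyocyte markers were present in all libraries, with 7 of 7 genes detected and a summed level of 46993 to 68435 FPKM, as the heart label states. The extraction protocol in the labels, however, names liver as the tissue. The summed level of 8 hepatocyte markers was 614 FPKM in C replicate 2, against 49.6 FPKM in C replicate 1 and 14.4 to 32.4 FPKM in the N and NP libraries. Without *Cyp2e1*, the marker that made up most of the sum in the N libraries, the other 7 summed to 581 FPKM in C replicate 2, 46.6 FPKM in C replicate 1 and 2.48 to 9.89 FPKM in the N and NP libraries, so that hepatocyte transcripts were higher in both C libraries. Atrial cardiomyocyte markers summed to 310 and 174 FPKM in the C group, to 3670 and 5181 FPKM in the N group and to 3752 and 6195 FPKM in the NP group. Erythroid markers summed to 30.7 FPKM in C replicate 1 and to at least 147 FPKM in each of the others. C replicate 2 thus stood apart in hepatocyte markers and C replicate 1 in erythroid markers, whereas the low atrial markers were shared by both C libraries. Diet and atrial content thus cannot be told apart. The N minus C differences of the 4 enzymes are also given below without each C library in turn. Leaving out 1 C library does not remove the atrial difference.

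None of the 10 genes passed the test in any of the 3 comparisons. In N hearts compared to C hearts, 0 of 10 had an adjusted *P* under 0.05 (limma, Benjamini-Hochberg over all 12923 genes), where 1.55% of all genes did. In NP hearts compared to N hearts the count was again 0 of 10, against 1.39% of all genes, and in NP hearts compared to C hearts it was 0 of 10, against 0.0387%. At an unadjusted *P* under 0.05, *Cat* and *Sod2* were lower in N than in C hearts (2 of 10, against 15.0% of all genes), *Gpx1* was lower in NP than in N hearts (1 of 10, against 8.04%), and *Cat* and *Gpx1* were lower in NP than in C hearts (2 of 10, against 8.05%). Each of these shares rests on 1 or 2 genes, and the 6 NRF2 targets contributed 0 of them.

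**Figure D1:**
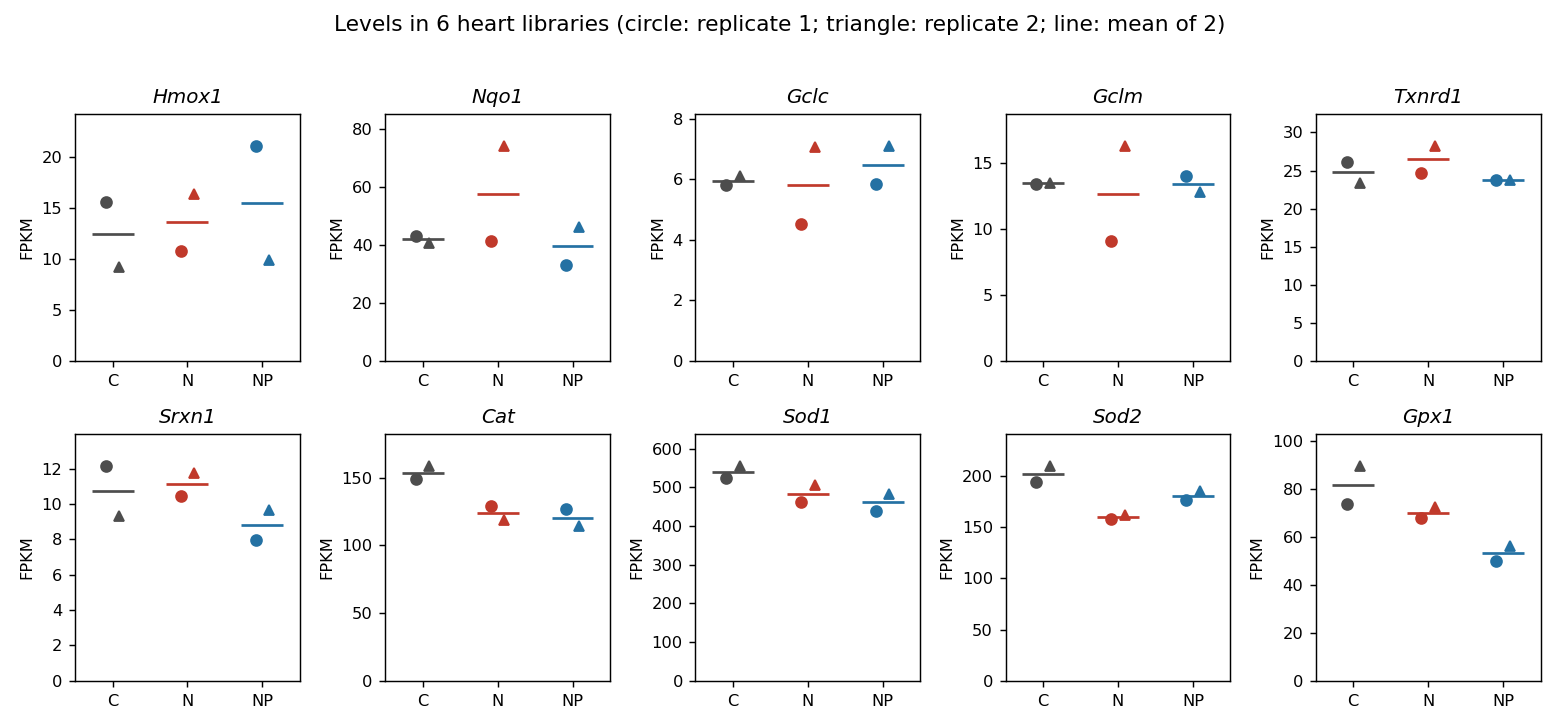
Level of each of the 10 genes in FPKM (vertical axes, each starting at 0) in the C, N and NP groups. Circles are replicate 1, triangles replicate 2 and lines the mean of 2 libraries. The 4 enzymes *Cat*, *Sod1*, *Sod2* and *Gpx1* lay higher in both C libraries than in any N or NP library, as deposited, whereas the groups overlapped for *Hmox1* (9.21 to 21.1 FPKM over all libraries), *Nqo1*, *Gclc* and *Gclm*.

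On the FPKM scale, which corrects for transcript length, the members covered a wide range of levels. *Sod1* was the highest, with a mean of 495 FPKM over the 6 libraries, followed by *Sod2* (181 FPKM), *Cat* (132 FPKM) and *Gpx1* (68.2 FPKM). The NRF2 targets followed with *Nqo1* at 46.5 FPKM, *Txnrd1* at 25.0 FPKM, *Hmox1* at 13.8 FPKM, *Gclm* at 13.2 FPKM, *Srxn1* at 10.2 FPKM and *Gclc* at 6.08 FPKM. The ranges over the libraries overlapped for the neighbours *Sod2* and *Cat*, *Gpx1* and *Nqo1*, *Hmox1* and *Gclm*, and *Gclm* and *Srxn1*. *Sod2* exceeded *Cat* in 6 of 6 libraries nevertheless, whereas *Hmox1* exceeded *Gclm* in only 4 of 6.

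*Hmox1* (chr8:75093618-75100593) encodes haem oxygenase 1, which opens the haem ring to yield biliverdin, carbon monoxide and iron. Its level was 15.6 and 9.21 FPKM in the C group, 10.8 and 16.4 FPKM in the N group, and 21.1 and 9.85 FPKM in the NP group. The highest and the lowest library differed more within the NP group than the group means did, and all 3 groups overlapped. The mean was 12.4 ± 4.53 FPKM in the C group, 13.6 ± 3.97 FPKM in the N group and 15.5 ± 7.92 FPKM in the NP group (SD, n = 2 each). In N hearts compared to C hearts the difference of log2(FPKM + 1) was 0.13 ± 0.41 (SE), with a 95% confidence interval of -0.87 to 1.14 and an adjusted *P* of 0.918 in limma. Compared to the N group, the NP group differed by 0.11 (-0.89 to 1.12, adjusted *P* = 0.996). Both intervals reached well to either side of 0, so that neither a rise nor a fall of *Hmox1* was resolved by 2 libraries a group. By quantitative PCR, the study reported higher cardiac *Hmox1* in NP than in C and N hearts. Whether PCR and sequencing used the same hearts is not given in the sources used here.

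*Nqo1* (chr8:107388225-107403205) encodes a quinone reductase of the cytosol and is a widely used readout of NRF2. It measured 43.2 and 40.7 FPKM in the C group, 41.4 and 74.1 FPKM in the N group, and 33.0 and 46.4 FPKM in the NP group. A single library, N replicate 2, stood above the other 5, and the gap between the N replicates on the log2 scale (0.82) exceeded the difference between the N and C groups, which was 0.39 ± 0.29 (-0.33 to 1.12, adjusted *P* = 0.595). Without N replicate 2 the N minus C difference was -0.02 and the NP minus N difference -0.08. With all libraries, the NP minus N difference was -0.49 on the log2 scale (interval -1.22 to 0.23, adjusted *P* = 0.857) and the NP minus C difference was -0.10 (adjusted *P* = 0.961).

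Glutathione synthesis begins with glutamate-cysteine ligase, whose catalytic subunit is encoded by *Gclc* (chr9:77754535-77794489) and whose modifier subunit by *Gclm* (chr3:122245487-122267215). *Gclc* was at 5.82 and 6.10 FPKM in the C group, 4.53 and 7.07 FPKM in the N group, and 5.85 and 7.10 FPKM in the NP group. *Gclm* was at 13.4 and 13.5 FPKM in the C group, 9.04 and 16.3 FPKM in the N group, and 14.0 and 12.8 FPKM in the NP group. For both subunits the lowest library was N replicate 1, N replicate 2 was among the highest, and the groups overlapped. The differences between the N and C groups were -0.06 for *Gclc* (-0.56 to 0.44, adjusted *P* = 0.928) and -0.13 for *Gclm* (-0.75 to 0.48, adjusted *P* = 0.859). The ratio of *Gclm* to *Gclc* in FPKM stayed between 1.81 and 2.39 in the 6 libraries. In NP hearts compared to N hearts, *Gclc* differed by 0.16 and *Gclm* by 0.13 (adjusted *P* = 0.977 and 0.993).

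The thioredoxin branch was represented by *Txnrd1* (chr10:82833951-82897724), the cytosolic reductase that regenerates thioredoxin with NADPH, and *Srxn1* (chr2:152105524-152111376), sulfiredoxin, which restores overoxidised peroxiredoxins. *Txnrd1* varied least among the NRF2 targets, with 26.1 and 23.4 FPKM in the C group, 24.7 and 28.2 FPKM in the N group, and 23.8 and 23.8 FPKM in the NP group. *Srxn1* measured 12.1 and 9.32 FPKM in the C group, 10.5 and 11.8 FPKM in the N group, and 7.98 and 9.67 FPKM in the NP group. Both NP libraries lay below both N libraries for these 2 genes, whereas the C libraries overlapped with the N libraries. The NP minus N difference was -0.14 for *Txnrd1* (-0.44 to 0.15, adjusted *P* = 0.932) and -0.31 for *Srxn1* (-0.71 to 0.10, adjusted *P* = 0.821), and the N minus C differences were 0.09 and 0.06 (adjusted *P* = 0.783 and 0.917). *Eid3*, which lies within the *Txnrd1* locus on the same strand, was at 0 to 0.168 FPKM.

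Catalase, encoded by *Cat* (chr2:103453904-103485153), breaks down hydrogen peroxide in peroxisomes. Its level was 149 and 158 FPKM in the C group, 129 and 119 FPKM in the N group, and 127 and 114 FPKM in the NP group. Both C libraries were above all others, and the N and NP libraries overlapped. The N minus C difference was -0.31 ± 0.11 (-0.59 to -0.03, unadjusted *P* = 0.0347, adjusted *P* = 0.285), and the NP minus N difference was -0.04 (-0.32 to 0.24, adjusted *P* = 0.994). In NP hearts compared to C hearts it was -0.35 (-0.63 to -0.07, unadjusted *P* = 0.0215, adjusted *P* = 0.551).

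*Sod1* (chr16:90220762-90226333), the copper/zinc superoxide dismutase of the cytosol, was at 524 and 555 FPKM in the C group, 463 and 506 FPKM in the N group, and 439.8 and 484 FPKM in the NP group. The C libraries were again the highest, and the differences were -0.16 for N minus C (-0.43 to 0.12, adjusted *P* = 0.579) and -0.23 for NP minus C (-0.50 to 0.05, adjusted *P* = 0.672). *Scaf4* overlaps *Sod1* on the opposite strand and was at 5.72 to 6.96 FPKM. The library kit was stranded, but the study's methods do not say whether reads were assigned to genes by strand. *Sod2* (chr17:13007839-13018119), the manganese enzyme of the mitochondrial matrix, was at 194 and 209.7 FPKM in the C group, 158 and 162 FPKM in the N group, and 176 and 185 FPKM in the NP group. It was the only member whose NP libraries lay between the other groups without overlap. Its N minus C difference was -0.33 ± 0.10 (-0.58 to -0.08, unadjusted *P* = 0.0182, adjusted *P* = 0.223), and its NP minus N difference was 0.17 (-0.08 to 0.42, adjusted *P* = 0.848).

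*Gpx1* (chr9:108339080-108340342) encodes the selenium-dependent glutathione peroxidase of cytosol and mitochondria. It was at 73.6 and 89.4 FPKM in the C group, 67.7 and 72.2 FPKM in the N group, and 49.9 and 56.3 FPKM in the NP group, so that the 3 groups were ordered without overlap. The NP minus C difference of -0.60 ± 0.14 was the largest among the 30 member differences (-0.94 to -0.27, unadjusted *P* = 0.00467, adjusted *P* = 0.462). The NP minus N difference was -0.39 (-0.73 to -0.06, unadjusted *P* = 0.0286, adjusted *P* = 0.489) and the N minus C difference was -0.21 (-0.55 to 0.12, adjusted *P* = 0.530). All of them missed the threshold after adjustment over all genes.

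**Figure D2:**
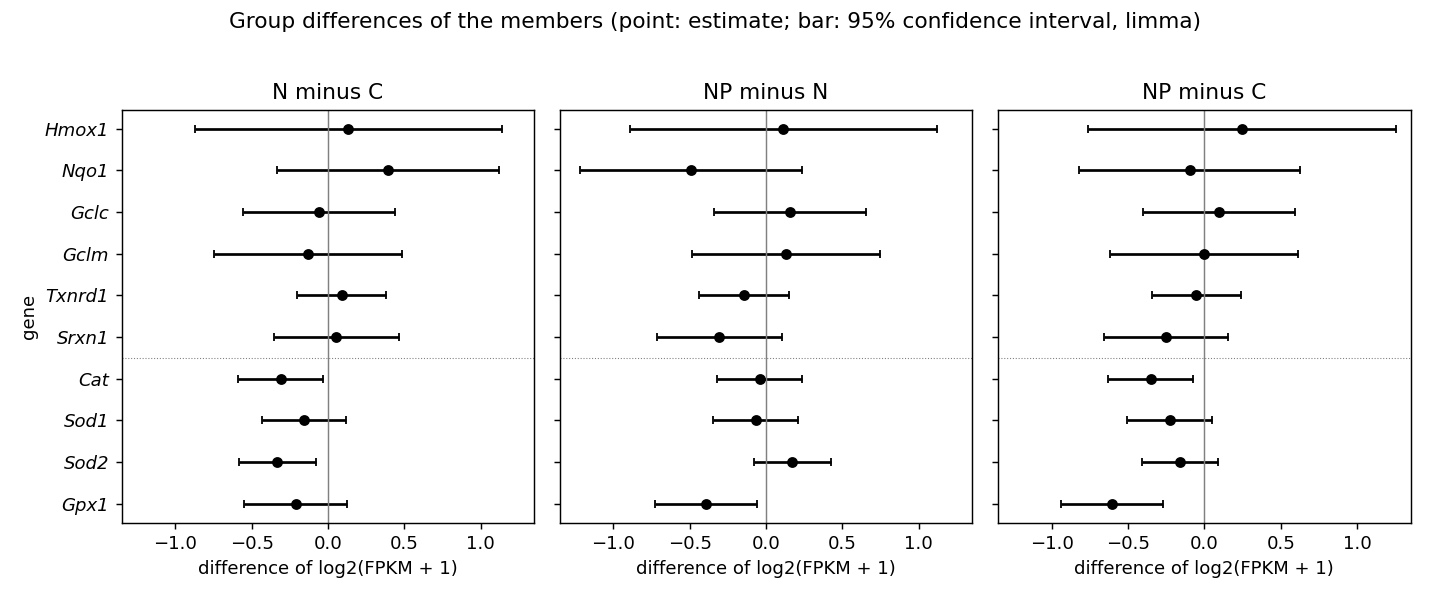
Difference of log2(FPKM + 1) (horizontal axes) between the N and C, NP and N, and NP and C groups for each of the 10 genes, as the estimate with its 95% confidence interval from limma; the dotted line separates the NRF2 targets from the 4 enzymes. The widest intervals are those of *Hmox1*, from -0.87 to 1.14 in the left panel, and the intervals that leave out 0 belong to *Cat*, *Sod2* and *Gpx1*, before adjustment over all genes.

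Counted by the separation of libraries, 4 of the 10 members (*Cat*, *Sod1*, *Sod2* and *Gpx1*) were lower in both N libraries than in both C libraries, where 27.0% of all genes were, and 0 of 10 were higher, where 22.5% were. In NP hearts compared to C hearts, the same 4 enzymes were lower in both libraries (23.0% of all genes) and 0 of 10 were higher (19.5%). In NP hearts compared to N hearts, *Sod2* alone was higher (1 of 10, against 15.2%) and *Txnrd1*, *Srxn1* and *Gpx1* were lower (3 of 10, against 14.7%). The comparisons share libraries and are therefore not independent of each other.

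The median difference between the N and C groups was 0.07 for the 6 NRF2 targets and -0.26 for the 4 enzymes, against -0.03 for all genes tested. Between the NP and C groups the medians were -0.03 and -0.29, against -0.01, and between the NP and N groups -0.02 and -0.06, against 0.03. The differences of the 4 enzymes between the N and C groups were below 0 without scaling, but that of *Sod1* turned to 0.02 when the libraries were scaled to the same total or quantile normalised. Scaling to the same total moved the median of all genes from -0.03 to 0.12, and all 4 enzymes lay below that median, whereas with quantile normalization 3 of 4 lay below the median of -0.04 and *Sod1* above it. Without C replicate 2, the library rich in hepatocyte transcripts, the N minus C differences were -0.26 for *Cat*, -0.12 for *Sod1*, -0.28 for *Sod2* and -0.07 for *Gpx1*, and that of *Hmox1* turned to -0.22. The NP minus C differences were then -0.31 for *Cat*, -0.18 for *Sod1*, -0.10 for *Sod2* and -0.47 for *Gpx1*. Without C replicate 1 instead, the N minus C differences were -0.35 for *Cat*, -0.20 for *Sod1*, -0.39 for *Sod2* and -0.35 for *Gpx1*. With each library left out in turn, the NP minus C differences ran from -0.43 to -0.28 for *Cat* and from -0.29 to -0.16 for *Sod1*. They ran from -0.21 to -0.10 for *Sod2* and from -0.74 to -0.47 for *Gpx1*. Ventricular markers were lower along with the enzymes, with 7 of 7 differences below 0 in N hearts compared to C hearts and 5 of 7 when scaled to the same total. It was 3 of 7 when quantile normalised, but that scaling gives genes of the same rank the same value. It thereby holds the differences of the highest genes near 0. The summed level of these markers was 64614 and 68435 FPKM in the C group and 46993 and 50180 FPKM in the N group. Atrial markers moved the opposite way, with 6 of 6 differences above 0 for N minus C (median 6.07). In the other comparisons the ventricular markers and the enzymes were less alike. For NP minus C, 4 of 7 ventricular markers were below 0 (median -0.12), against 4 of 4 enzymes. For NP minus N, 7 of 7 ventricular markers were above 0 (median 0.16), whereas 3 of 4 enzymes were below 0. Of the 7 ventricular differences below 0 for N minus C, that of *Actc1* was -2.14e-05. The part of the ventricular and atrial markers in the result was not tested. In whole heart tissue, fewer cells of a type and less RNA per cell cannot be told apart.

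Some members varied together over the 6 libraries, which share depth and diet, so that these correlations of log2(FPKM + 1) are only a description. Pearson's r was 0.889 for *Sod1* and *Gpx1*, 0.831 for *Gclc* and *Gclm*, 0.823 for *Nqo1* and *Txnrd1*, and 0.807 for *Txnrd1* and *Srxn1*. For the *Gclc* and *Gclm* pair, Spearman's rho was only 0.371. Between *Hmox1* and the other NRF2 targets, r ran from -0.05 (*Srxn1*) to 0.47 (*Gclm*). The genes whose pattern was most like that of *Hmox1* over the 6 libraries were *Ttc39a* (r = 0.979), *Alg8* (r = 0.975) and *Ramp3* (r = 0.971). These were picked as the highest among all genes tested, and over 6 libraries such a pick can give values this high by itself.

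The regulators of the pathway did not pass limma's test either (0 of 10 in each comparison, and 0 at an unadjusted *P* under 0.05). *Nfe2l2* was at 37.9 and 36.0 FPKM in the C group, 36.1 and 58.4 FPKM in the N group, and 39.4 and 55.5 FPKM in the NP group. Its high libraries were replicate 2 of the N and NP groups, and the N minus C difference was 0.31 (-0.34 to 0.95, adjusted *P* = 0.642). *Keap1* ranged from 20.1 to 26.1 FPKM and *Bach1* from 10.6 to 17.0 FPKM, with differences of -0.15 and 0.12 between the N and C groups (adjusted *P* = 0.660 and 0.831). NRF2 is controlled mainly through the stability of its protein, which RNA levels do not measure. Of the 20 other NRF2 targets tested, 0 passed limma's test in any comparison. At an unadjusted *P* under 0.05 the counts were 4, 3 and 2 of 20 in the N and C, NP and N, and NP and C comparisons. The shares of all genes were 15.0%, 8.04% and 8.05%. *G6pdx* and *Tkt* of the pentose phosphate pathway, which makes NADPH, had the lowest *P* for N minus C. *G6pdx* was at 3.52 and 3.77 FPKM in the C group, 7.04 and 5.98 FPKM in the N group, and 3.36 and 4.33 FPKM in the NP group. Its differences were 0.69 between the N and C groups (adjusted *P* = 0.115) and -0.64 for NP minus N (adjusted *P* = 0.192), and *Tkt* differed by 0.91 between the N and C groups (adjusted *P* = 0.189). Several adipocyte markers moved in the same directions, with 5 of 8 differences above 0 (44.8% of all genes) and a median of 2.62 for N minus C. It was 6 of 8 when scaled to the same total or quantile normalised. For NP minus N, 8 of 8 were below 0 (44.0% of all genes), with a median of -1.19. Limma called 0 of these markers. At an unadjusted *P* under 0.05 the counts were 5 and 1 of 8, against 15.0% and 8.04% of all genes. Among the adipocyte markers, *Adipoq*, which encodes adiponectin, was at 0.593 and 1.12 FPKM in the C group, 16.0 and 14.6 FPKM in the N group, and 1.66 and 11.9 FPKM in the NP group. The summed level of the 8 adipocyte markers, most of it from *Fabp4*, was nevertheless not higher in the N group (1376 and 1364 FPKM in the C group, 1217 and 1321 FPKM in the N group, 1028 and 1164 FPKM in the NP group). Macrophage markers moved in the same directions as *G6pdx* too. For N minus C, 10 of 10 were above 0 (median 0.79) and 3 were called, where 1.55% of all genes were called. For NP minus N, 10 of 10 were below 0 (median -1.21) and 6 were called, where 1.39% of all genes were called. The part of the adipocyte and macrophage markers in the result was not tested.

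Among 118 tested genes of 8 related redox lists, 3 were called higher and 1 lower in N hearts compared to C hearts, 2 were called lower in NP hearts compared to N hearts, and 0 were called in NP hearts compared to C hearts (limma), where 1.55%, 1.39% and 0.0387% of all genes were called. At an unadjusted *P* under 0.05 the counts were 22, 8 and 17 of 118, against 15.0%, 8.04% and 8.05% of all genes. The called genes belonged to the glutathione system and to the enzymes that produce oxidants. In the glutathione system, 1 of 17 genes rose and 1 fell in the N group. *Gpx3*, the secreted glutathione peroxidase, rose from 158 and 134 FPKM in the C group to 357 and 352 FPKM in the N group, and was at 355 and 391 FPKM in the NP group. The N minus C difference of *Gpx3* was 1.28 ± 0.12 (adjusted *P* = 0.00930), and the NP minus N difference was 0.07 (-0.23 to 0.38, adjusted *P* = 0.991). *Mgst3*, a membrane-bound glutathione transferase and peroxidase, fell from 644 and 675 FPKM in the C group to 375 and 355 FPKM in the N group, a difference of -0.85 ± 0.10 (adjusted *P* = 0.0189), and was at 417 and 416 FPKM in the NP group. *Gpx4*, which reduces lipid peroxides, differed by -0.50 between the N and C groups without passing the test (adjusted *P* = 0.190). The summed level of the atrial markers was higher and that of the ventricular markers lower in the N and NP libraries than in the C libraries, without scaling. Fibroblast markers summed to 449 and 526 FPKM in the C group, 587 and 617 FPKM in the N group, and 546 and 660 FPKM in the NP group, with 6 of 6 differences above 0 for N minus C (median 0.32). The part of these markers, and of the adipocyte markers, in the *Gpx3* and *Mgst3* calls was not tested.

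Among the oxidant producers, *Cybb* and *Rac2* of the NADPH oxidase were called higher in N than in C hearts and lower in NP than in N hearts. *Cybb*, the catalytic subunit of the phagocyte NADPH oxidase, was at 2.72 and 3.26 FPKM in the C group, 9.89 and 9.36 FPKM in the N group, and 3.08 and 2.27 FPKM in the NP group. It rose by 1.42 ± 0.15 in N hearts compared to C hearts (adjusted *P* = 0.0134) and fell by 1.54 ± 0.15 in NP hearts compared to N hearts (adjusted *P* = 0.0102). *Rac2*, the GTPase that activates this oxidase in blood cells, was at 1.22 and 1.22 FPKM, 4.28 and 4.20 FPKM, and 1.02 and 1.66 FPKM in the C, N and NP groups. It rose by 1.24 (adjusted *P* = 0.0282) and fell by 1.18 (adjusted *P* = 0.0344).

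*Ncf1*, a cytosolic subunit of the same oxidase, was at 2.46 and 2.63 FPKM, 5.68 and 4.27 FPKM, and 2.43 and 1.91 FPKM in the C, N and NP groups. Its differences of 0.74 (N minus C) and -0.91 (NP minus N) did not pass the test (adjusted *P* = 0.121 and 0.0906). The membrane subunit *Cyba* and the other oxidase *Nox4* did not pass, with differences of -0.08 and 0.22 between the N and C groups (adjusted *P* = 0.811 and 0.635). Over the 11 genes of this list, 2 rose and 9 did not pass in N hearts compared to C hearts, where 1.55% of all genes were called. The median difference was 0.23, against -0.03 for all genes. In NP hearts compared to N hearts, 2 fell and 9 did not pass, where 1.39% of all genes were called. The median was -0.21, against 0.03 for all genes. *Cybb* and *Rac2* are expressed by phagocytes, and the macrophage markers moved with them. All 10 macrophage markers were detected, and their summed level was 412 and 369 FPKM in the C group, 762 and 635 FPKM in the N group, and 313 and 274 FPKM in the NP group. Of these 10 markers, 3 were called higher in N than in C hearts and 6 lower in NP than in N hearts, against the same 1.55% and 1.39% of all genes. Markers of T and NK cells summed to 7.58 and 7.43 FPKM in the N group and to 0.562 to 1.01 FPKM in the C and NP groups. From these RNA values, a change in the number of such cells and a change in their RNA cannot be told apart. By flow cytometry, the study reported more macrophages in N than in C hearts, and fewer macrophages and natural killer cells in NP than in N hearts. Whether those were the sequenced hearts is not given in the sources used here. The part of the markers in the result was not tested.

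These calls were often lost when a single library was left out and, in part, with other settings. Leaving out C replicate 2, N replicate 1 or N replicate 2 left 0 of the 4 calls between the N and C groups, with *Cybb* at 1.51, *Gpx3* at 1.16 and *Mgst3* at -0.82 without C replicate 2, and leaving out C replicate 1 left *Gpx3* as the only one of these 4. Leaving out any C or N library left 0 of the 2 calls between the NP and N groups, and leaving out either NP library left 1. Where a call between the NP and N groups was lost in this way, the difference was -1.38 to -1.58 for *Cybb* and -0.98 to -1.19 for *Rac2*, against -1.54 and -1.18 with all libraries. Without either C library these differences stayed at -1.54 and -1.18, because C libraries do not enter them. The loss of a library also left fewer libraries for the shared estimate of the spread. *Mgst3* also lost its call with quantile normalization, in the fit of only the N and C groups and without either NP library, which made 8 of 16 alternatives with an adjusted *P* of 0.0501 to 0.0651 in these 4. *Rac2* lost its N minus C call with no filter (adjusted *P* = 0.0570), and its NP minus N call with no filter, with a pseudocount of 0.1 and in the fit of only these 2 groups (adjusted *P* = 0.0684, 0.0513 and 0.128). *Cybb* lost its NP minus N call in the last of these (adjusted *P* = 0.0592).

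**Figure D3:**
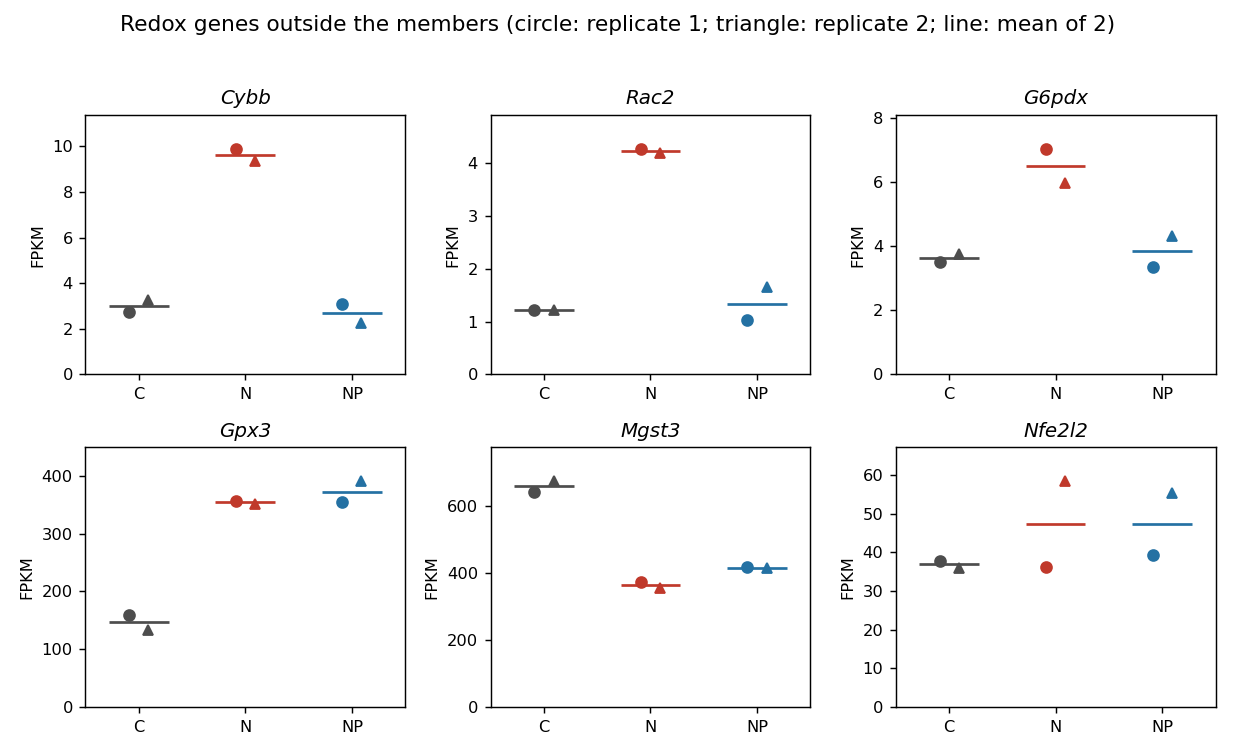
Level in FPKM (vertical axes, each starting at 0) of *Cybb*, *Rac2*, *G6pdx*, *Gpx3*, *Mgst3* and *Nfe2l2* in the C, N and NP groups. Circles are replicate 1, triangles replicate 2 and lines the mean of 2 libraries. Both N libraries lay above the C and NP libraries for *Cybb* (9.89 and 9.36 FPKM), *Rac2* and *G6pdx* (not called), *Gpx3* was higher and *Mgst3* lower in the N and NP groups than in the C group, and *Nfe2l2* was high in replicate 2 of the N and NP groups (58.4 and 55.5 FPKM).

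The remaining lists held no gene called by limma in any of the 3 comparisons. At an unadjusted *P* under 0.05 the counts in N hearts compared to C hearts were 4 of 17 genes of the thioredoxin and peroxiredoxin system, 3 of 28 of the peroxisome, 3 of 13 of haem and iron handling and 1 of 2 of the other dismutase and its chaperone, where 15.0% of all genes had such a *P*. In the thioredoxin and peroxiredoxin system, 15 of 17 differences between the N and C groups were below 0, with a median of -0.19, where 55.1% of all genes were below 0, and 11 of 17 were below 0 when the libraries were scaled to the same total, where 30.0% of all genes were. Relative to the median of all genes, 15 of 17 were lower both without scaling and with each of the 3 scalings. *Msrb2*, a mitochondrial methionine sulfoxide reductase, differed by -0.59 (adjusted *P* = 0.101) and *Prdx5*, a peroxiredoxin of mitochondria and peroxisomes, by -0.36 (adjusted *P* = 0.207). The peroxisome list, to which catalase belongs by location, had 26 of 28 differences below 0 with a median of -0.20, and 19 of 28 when the libraries were scaled to the same total, and 25 of 28 lay below the median of all genes without scaling and with each of the 3 scalings. *Ech1*, an auxiliary enzyme of fatty acid oxidation, was its lowest by *P*, with 1899 and 2084 FPKM in the C group and 1345 and 1365 FPKM in the N group, a difference of -0.55 (adjusted *P* = 0.0971). In NP hearts compared to N hearts, the medians of these 2 lists were 0.08 and 0.02, beside 0.03 for all genes. Ventricular markers moved along with both lists without scaling (7 of 7 below 0, median -0.32 for N minus C). Atrial markers moved the opposite way (6 of 6 above 0, median 6.07). With quantile normalization the ventricular median was 0.04, but that scaling holds the differences of the highest genes near 0. For NP minus N without scaling, 7 of 7 ventricular markers were above 0 (median 0.16). The part of the ventricular and atrial markers in the result was not tested.

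The other superoxide dismutase *Sod3* and the copper chaperone *Ccs*, which loads SOD1, did not pass, and *Ccs* differed by -0.38 between the N and C groups (adjusted *P* = 0.247). Genes of haem and iron handling did not pass either. *Cp*, the ferroxidase ceruloplasmin, differed by 0.44 (adjusted *P* = 0.129), and *Slc40a1*, the iron exporter ferroportin, by -0.69 (adjusted *P* = 0.202). The haem scavenger *Hpx*, a plasma protein made in the liver, was at 28.2 FPKM in C replicate 2, 1.61 FPKM in C replicate 1 and 0 to 0.286 FPKM in the N and NP libraries. The hepatocyte markers were likewise highest in C replicate 2, and their part in this was not tested.

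**Figure D4:**
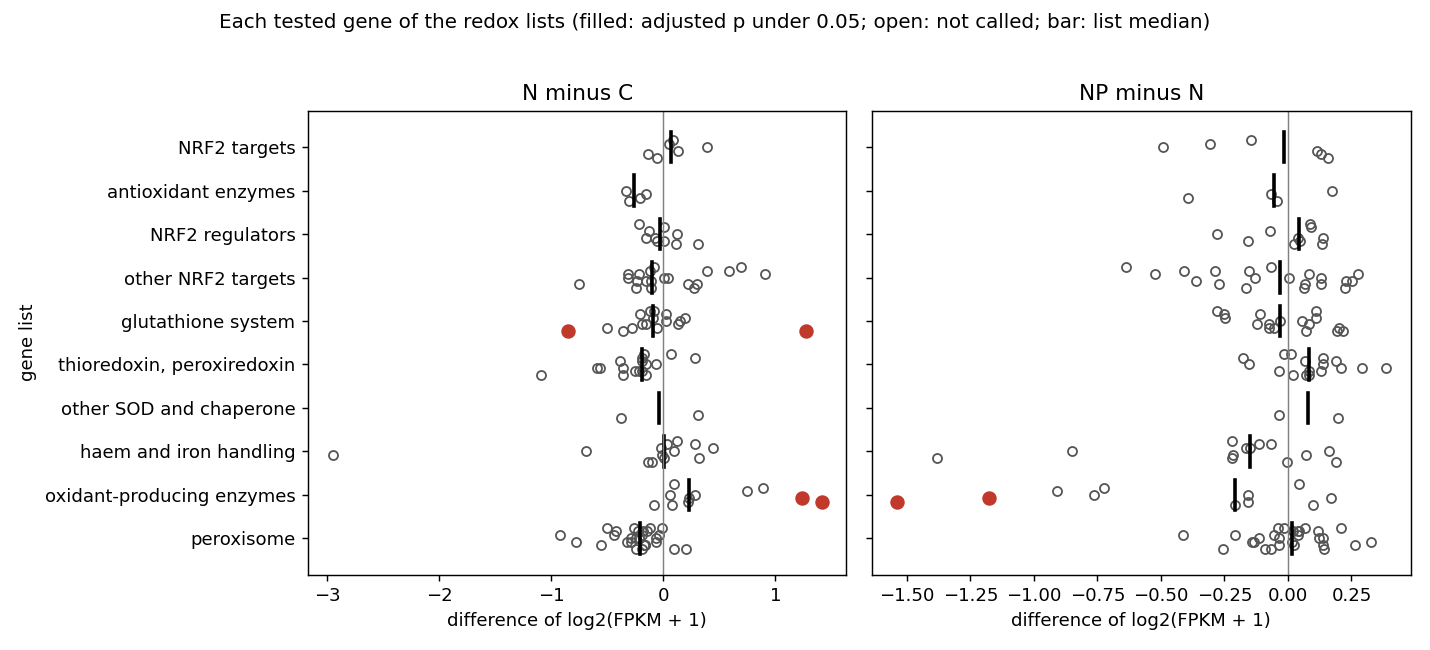
Difference of log2(FPKM + 1) (horizontal axes, which differ in range) between the N and C groups (left) and the NP and N groups (right) for each tested gene of the 10 lists on the vertical axis. Filled points have an adjusted *P* under 0.05, open points do not, and the vertical bars are list medians. Filled points occur among the glutathione system (*Gpx3* and *Mgst3*) and the oxidant-producing enzymes (*Cybb* and *Rac2*), and none among the members.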

How the data were processed

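Heart RNA, with 2 libraries in each group, was sequenced after preparation with a stranded mRNA kit. Per the submitters' processing notes and the study's methods, the authors used TopHat2 2.0.13, Bowtie2 2.2.3, SAMtools 0.1.19 and Cufflinks 2.2.1 with the mm10 genome, and deposited FPKM per gene and library. Read counts were not used here. The values were not scaled further for the main analysis.

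Groups were taken from the sample labels. FPKM were analysed as log2(FPKM + 1), a scale that understates changes of low genes, and 12923 of 24346 genes with a mean of at least 0.5 FPKM were tested; 6466 were at 0 in every library. Differences were tested gene by gene with limma 3.58.1 in R 4.3.3, in 1 model of the 3 groups with a variance trend on the mean level. The 3 groups shared 1 estimate of the spread. Benjamini-Hochberg adjustment ran across every gene tested in a comparison, at a threshold of 0.05. The scripts were tested on simulated data. Tables and plots were made with Python 3.11.15, numpy 2.4.6, pandas 2.3.3 and matplotlib 3.10.9.

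Depth was estimated from the steps between the low FPKM of 4107 single-transcript genes, for which 72.9 to 78.5% of the values of up to 5 reads lay within 0.1 of a whole read. Gene positions are from RefSeq on GRCm38 (mm10), and strands, transcript lengths and overlaps between genes are from GENCODE. The members, the redox and marker lists and the tests were chosen with earlier results of these data known. Of 123 entries in the related lists, 122 were found (*Flvcr1* was not) and 118 passed the filter; 1 further gene is not reported here. Genes to be named were the members, *Nfe2l2*, *Keap1*, *Bach1*, every called gene of the lists, the 3 genes of lowest *P* in each list for N minus C and for NP minus N, of which the text names a subset, and the 3 genes most correlated with *Hmox1*; *Cyba*, *Nox4*, *Eid3* and *Scaf4* were named after their values were seen. Alternatives were another pseudocount, other filters, 3 scalings, no variance trend, only the groups compared, blocks by replicate number, and the omission of each library in turn.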

Additional observations from a re-analysis of the deposited data

How the results depend on the processing

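None of the 10 members was called by limma under any of the 16 alternatives, over 480 values of 30 differences, and the smallest adjusted *P* among them was 0.0548 (*Sod2*, N minus C). Of these values, 447 kept their sign and 33 turned, over 17 of the 30 differences. When the libraries were scaled to the same total, the N minus C difference turned to 0.0895 for *Gclc*, 0.0288 for *Gclm* and 0.0181 for *Sod1*, and the NP minus C difference to 0.0567 for *Nqo1*, 0.14 for *Gclm* and 0.10 for *Txnrd1*. With quantile normalization, *Sod1* turned to 0.0228 (N minus C), *Cat* to 0.0002 (NP minus N) and *Gclm* to 0.0111 (NP minus C). Leaving out each library in turn, with a lone library assumed to vary like the other groups, gave N minus C ranges of -0.22 to 0.49 for *Hmox1*, -0.0178 to 0.81 for *Nqo1*, -0.33 to 0.21 for *Gclc*, -0.52 to 0.26 for *Gclm*, -0.0007 to 0.18 for *Txnrd1* and -0.12 to 0.23 for *Srxn1*. The NP minus N ranges were -0.40 to 0.62 for *Hmox1*, -0.12 to 0.43 for *Gclc*, -0.26 to 0.52 for *Gclm*, -0.12 to 0.0331 for *Cat* and -0.14 to 0.0007 for *Sod1*, and the NP minus C ranges -0.26 to 0.76 for *Hmox1*, -0.33 to 0.14 for *Nqo1*, -0.0230 to 0.22 for *Gclc*, -0.0632 to 0.0553 for *Gclm* and -0.13 to 0.0243 for *Txnrd1*.

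Counts over all genes and over the related lists moved more, and the cause was not tested. In the same order of comparisons (N minus C, NP minus N, NP minus C), leaving out 1 library gave 49 to 183, 67 to 108 and 5 to 101 genes called, against 200, 179 and 5 with all libraries, and 0 to 3, 0 to 1 and 0 to 3 related genes, against 4, 2 and 0. Without C replicate 1 the balance turned, to 88 higher and 95 lower (N minus C, against 191 and 9, with 85 genes called in both fits) and 10 higher and 91 lower (NP minus C, against 5 and 0), and without C replicate 2 it was 41 and 8, and 5 and 7. Scaling to the same total gave 309 genes (N minus C), 10 genes (NP minus C) and 1 related gene (NP minus C). A pseudocount of 0.1 gave 12 genes and 1 related gene in NP minus C and 1 related gene in NP minus N, no filter gave 0 genes (NP minus C) and 1 related gene (NP minus N), and the fit of only the groups compared gave 78 genes and 0 related genes (NP minus N).

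The labels do not state that replicate numbers pair the libraries, but the deposited columns of the N and NP groups are named alike within each number, with a time in replicate 2 only; whether they shared a batch is not given in the sources used here. The differences of replicate 2 from replicate 1 over the genes had Pearson correlations of 0.0471 (C and N), 0.124 (C and NP) and 0.458 (N and NP). With the replicate block, 328 genes were called in N minus C (274 higher and 54 lower, against 191 and 9 without it), and 20 genes and 1 related gene in NP minus C. A replicate block that spanned only the N and NP libraries was added after the data were seen. Its term was 0 for both C libraries. Its N minus C and NP minus C values therefore set the fitted level of replicate 1 against the mean of the C libraries. They are not the group differences of the other fits, whereas NP minus N is the same difference. This fit gave 1070, 301 and 103 genes (506 higher and 564 lower in N minus C) and 20, 5 and 2 related genes. *Srxn1* was at -0.0464 (N minus C) and *Gclc* at -0.10 (NP minus C), both turned under this coding, and 0 members were called. The depth of the N and NP libraries limits *Hmox1* and *Gclc* to 114 and 128 reads at the least.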
